A study of Homo sapiens with 16 samples.

Results

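Aminoacyl-tRNA synthetases are the enzymes that join each amino acid to its tRNA, and here the mRNAs of 36 of them were followed in HEK293 cells in which Gemin5 was silenced. The members were taken from a fixed list of current gene symbols, 20 for enzymes that work in the cytosol and 16 for enzymes of mitochondria, and all 36 were found among the 58302 gene identifiers of the count files. HEK293 cells are a widely used human line derived from embryonic kidney. Gemin5 is an RNA-binding protein with roles in snRNP assembly and in translation. The siRNAG5 cells were transfected with 100 nM of a small interfering RNA against Gemin5. According to the study's methods the Ctrl cells received a control siRNA, while the sample labels describe them as untreated. RNA of cytoplasmic lysates (Input) and RNA of polysomes (Polysome), which are mRNAs bound by several ribosomes, was sequenced from 4 biological samples per treatment, giving 16 libraries in 4 groups.

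In the cytosol each amino acid has a dedicated synthetase, with a few exceptions. EPRS1 joins both glutamate and proline, FARSA and FARSB are the subunits of the phenylalanine enzyme, and the GARS1 and KARS1 genes encode both the cytosolic and the mitochondrial enzyme. Several of the cytosolic enzymes sit in a large multi-synthetase complex held together by the scaffold proteins AIMP1, AIMP2 and EEF1E1, to which EPRS1, IARS1, KARS1, LARS1, MARS1, QARS1 and RARS1 of the members belong. The mitochondrial enzymes are encoded in the nucleus, made by cytosolic ribosomes and imported, and mitochondria make glutaminyl-tRNA with an amidotransferase in place of a synthetase. Genes of many cytosolic synthetases are known targets of the transcription factor ATF4, which acts in the integrated stress response and in the response to amino acid shortage.

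Reads counted on genes ranged from 11145324 to 24511299 per library, and levels are given as reads per 1e+06 gene reads (CPM) after one TMM scaling of the 16 libraries. GEMIN5 itself fell from 17.9 ± 2.32 CPM (SD, n = 4) in Ctrl to 6.72 ± 0.529 in siRNAG5 in Input, and from 7.44 ± 1.56 to 2.65 ± 0.495 in Polysome. All 7 markers of HEK293 cells had reads in every library. The summed level of 15 liver genes was 93.4 to 181 CPM in the 4 Polysome Ctrl libraries and 162 and 144 CPM in Input Ctrl 3 and 4, against 5.73 to 13.3 CPM in the other 10 libraries. That of 7 blood genes was 4.08 to 5.58 CPM in Polysome Ctrl and 0.539 to 0.871 CPM in Polysome siRNAG5. In Input it was 0.449 to 1.99 CPM in Ctrl and 0.631 to 1.27 CPM in siRNAG5. The source of the reads of liver and blood genes was not tested. Polysome Ctrl 1, siRNAG5 1 and siRNAG5 4 stood apart from the other 5 Polysome libraries across the treatments, a grouping made after seeing the data. Not every member followed it, and how many did was not counted. HARS2 had 8.66 CPM in Polysome Ctrl 1 and 16.7, 16.9 and 17.1 CPM in Ctrl 2, 3 and 4. CARS1 had 17.7 and 19.6 CPM in Polysome Ctrl 1 and 2, and 28.1 and 28.2 CPM in Ctrl 3 and 4. In bulk RNA, fewer cells of a type and less RNA per cell cannot be told apart.

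Promoter windows were available from RefSeq (GRCh38.p14, from 250 bases before to 50 bases after a transcription start) for 30 of the 36 members, 16 cytosolic and 14 mitochondrial. LARS1, TARS3, VARS1, YARS1, AARS2 and VARS2 had no window and were not searched. They were searched on both strands for TGATGCAA, the core letters known from amino acid response elements to which ATF4 binds. The letters were found for 6 of the 16 cytosolic members, for 0 of the 14 mitochondrial members and for 1.08% of the 27305 genes of the table. The 6 matches are shown because all of them lie in the cytosolic class and because 3 of them belong to genes called higher in Input, by the limits given below. Each line gives 30 bases on the strand of the gene, 5′ to 3′, with the matched letters (as TTGCATCA where they lie on the opposite strand) in capitals.
AARS1, chr16:70289675-70289704, minus strand: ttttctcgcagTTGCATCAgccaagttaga
CARS1, chr11:3057407-3057436, minus strand: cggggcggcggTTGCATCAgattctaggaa
MARS1, chr12:57488053-57488082, plus strand: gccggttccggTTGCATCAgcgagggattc
IARS1, chr9:92293692-92293721, minus strand: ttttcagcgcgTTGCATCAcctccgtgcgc
TARS1, chr5:33440956-33440985, plus strand: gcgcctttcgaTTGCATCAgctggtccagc
NARS1, chr18:57621804-57621833, minus strand: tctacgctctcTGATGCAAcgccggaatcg
In CARS1, MARS1 and IARS1 the match began 2, 4 and 13 bases before the RefSeq start of the window. In TARS1 and NARS1 it began 3 and 15 bases after that start, and in AARS1 187 bases before it. The gene spans printed below are those of GENCODE v44, whose outermost starts differ from these RefSeq starts. The bases shown for all 6 genes lie within their GENCODE spans. Of the TGATGCAA letters only C was relaxed in a wider search, TGATGNAA, which contains the first motif. It was found for 7 of the 16 cytosolic members (GARS1 being the addition), for 1 of the 14 mitochondrial members (YARS2) and for 4.46% of all genes. The letters CACGTG, an E-box, occurred in 1 cytosolic member (IARS1), 3 mitochondrial members (CARS2, EARS2 and MARS2) and 8.77% of all genes. No test was made of these shares, and a match is not a binding site.

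The first comparison asked how the synthetase mRNAs of the lysate differed between siRNAG5 and Ctrl cells. The cytosolic members that passed the limits rose, and most of the mitochondrial ones that did so fell. To be called, a gene needed a Benjamini-Hochberg adjusted p below 0.05 in edgeR and a log2 FC of more than 0.5 in either direction. In Input, 4 of the 20 cytosolic members were called higher (AARS1, CARS1, QARS1 and MARS1) and 0 lower, whereas 3 of the 16 mitochondrial members were called lower (CARS2, EARS2 and MARS2) and 1 higher (VARS2). Over all 14134 genes tested, 10.5% were called higher and 6.02% lower. The median log2 FC was 0.19 for the cytosolic class and -0.23 for the mitochondrial class, where that of all genes was 0.036. The difference between the classes was not tested.

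AARS1 (ENSG00000090861, chr16:70251983-70289707, minus strand) charges tRNA with alanine. It stood at 92.6, 91.6, 102 and 112 CPM in the 4 Input Ctrl libraries and at 175, 152, 155 and 149 CPM in the 4 Input siRNAG5 libraries (log2 FC 0.68 ± 0.073 SE, adjusted p = 2.28e-08). CARS1 (ENSG00000110619, chr11:3000922-3057613, minus strand), the cysteine enzyme, had 54.1, 49.4, 50.4 and 51.7 CPM in Ctrl and 90.5, 74.6, 89.6 and 70.5 CPM in siRNAG5 (log2 FC 0.68 ± 0.080 SE, adjusted p = 1.15e-07). For both genes every siRNAG5 library lay above every Ctrl library. QARS1 (ENSG00000172053, chr3:49095932-49105130, minus strand), the glutamine enzyme of the multi-synthetase complex, had 219.8, 202, 215 and 223 CPM in Ctrl and 355, 324, 298 and 298 CPM in siRNAG5 (log2 FC 0.58 ± 0.066 SE, adjusted p = 4.35e-08). MARS1 (ENSG00000166986, chr12:57475445-57517569, plus strand), the methionine enzyme of the same complex, had 181, 200.5, 201 and 209.9 CPM in Ctrl and 322, 260.02, 284 and 254 CPM in siRNAG5 (log2 FC 0.51 ± 0.072 SE, adjusted p = 1.75e-06). The groups of these genes did not overlap either. Exons of MARS1 overlap those of DDIT3 and ARHGAP9 on the opposite strand, and those of AARS1 overlap DDX19B. The libraries were stranded, but the strand setting of the counting is not given in the sources used here. AARS1, CARS1 and MARS1 carry the TGATGCAA letters shown above and QARS1 does not, and the other carriers IARS1, TARS1 and NARS1 had a log2 FC of 0.25, 0.16 and 0.16.

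Below the log2 FC limit, most cytosolic members still differed beyond the spread of the libraries. Of the 20, 16 had an adjusted p under 0.05, 11 higher and 5 lower, where 17.9% of all genes were higher and 19.1% lower at that limit alone. Besides the called ones, EPRS1 (0.40), GARS1 (0.36), SARS1 (0.33), IARS1 (0.25), YARS1 (0.24), LARS1 (0.21) and TARS1 (0.16) were higher. RARS1 (-0.49), FARSA (-0.41), HARS1 (-0.35), FARSB (-0.25) and KARS1 (-0.19) were lower. RARS1, the arginine enzyme, had 179.7, 200.1, 177 and 175 CPM in Ctrl and 119.8, 134, 140.2 and 123 CPM in siRNAG5, and FARSA had 298, 364, 319.9 and 347 CPM and 264, 250.4, 241 and 234 CPM. Both subunits of the phenylalanine enzyme thus moved down together, and within the multi-synthetase complex QARS1, MARS1, EPRS1, IARS1 and LARS1 lay above 0 while RARS1 and KARS1 lay below. All 4 siRNAG5 libraries were above all 4 Ctrl libraries for 11 cytosolic members, where 15.1% of all genes showed this, and below them for 6, where 19.1% of all genes did. NARS1 (0.16 ± 0.074), VARS1 (0.095 ± 0.081), WARS1 (-0.14 ± 0.071) and TARS3 (-0.16 ± 0.091) did not pass the test.

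**Figure D1:**
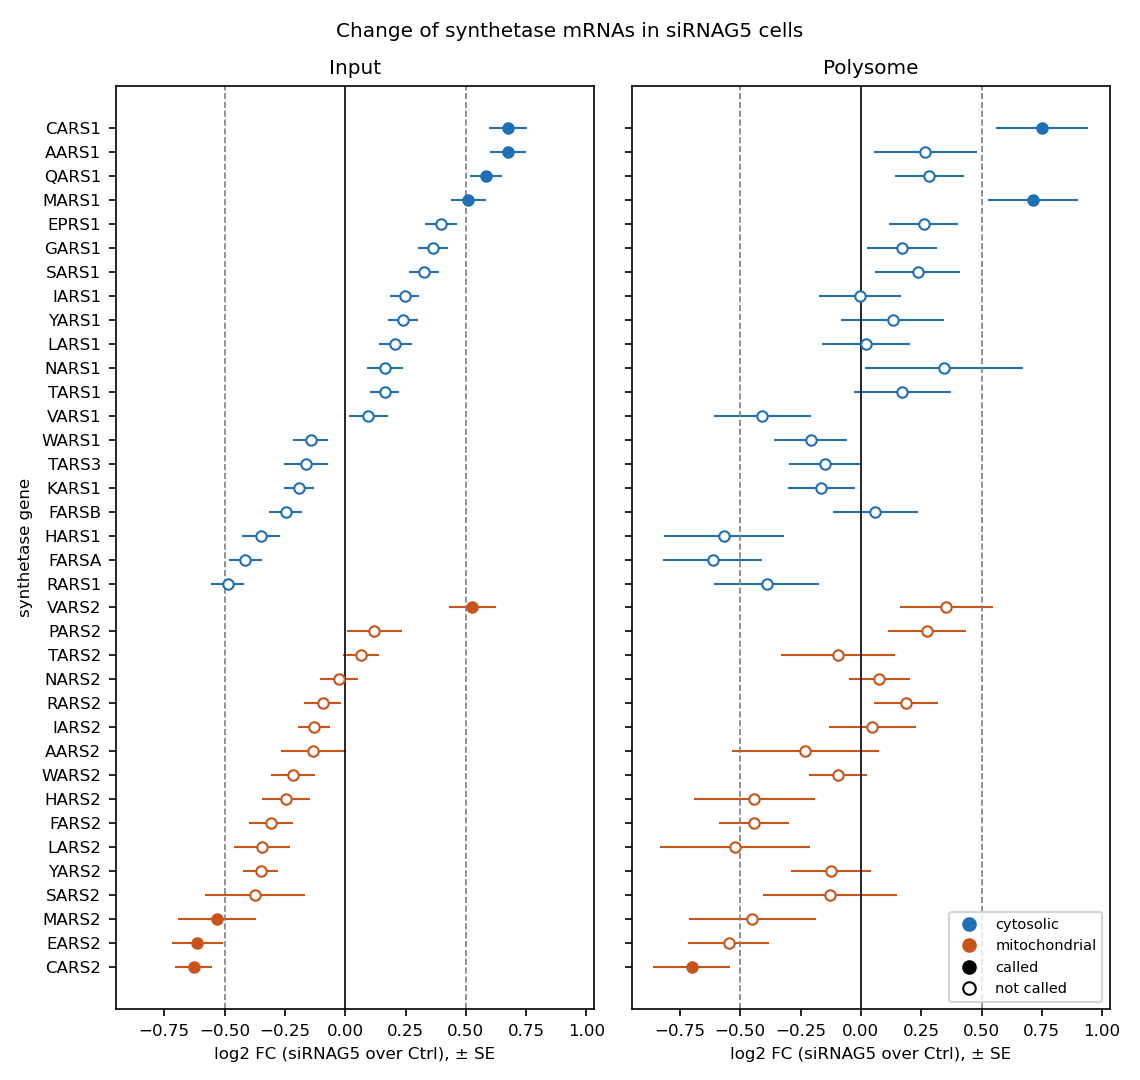
The horizontal axis is the log2 FC of siRNAG5 over Ctrl with its standard error, in Input (left) and in Polysome (right), for each synthetase gene, ordered by class and by the Input value. Filled points were called and dashed lines mark a log2 FC of 0.5 in either direction; in Input 13 of the 20 cytosolic genes lie above 0 and 13 of the 16 mitochondrial genes below 0.

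On the mitochondrial side, CARS2 (ENSG00000134905, chr13:110641412-110713603, minus strand), which charges mitochondrial tRNA with cysteine, had 65.96, 76.7, 76.3 and 66.8 CPM in Ctrl and 45.7, 43.2, 50.3 and 44.02 CPM in siRNAG5 (log2 FC -0.63 ± 0.078 SE, adjusted p = 2.32e-07). EARS2 (ENSG00000103356, chr16:23520754-23557731, minus strand), the glutamate enzyme, had 18.4, 19.3, 18.6 and 17.2 CPM in Ctrl and 12.7, 10.00, 12.9 and 11.9 CPM in siRNAG5 (log2 FC -0.61 ± 0.11 SE, adjusted p = 3.14e-05). The 4 siRNAG5 libraries lay below the 4 Ctrl libraries for both genes. MARS2 (ENSG00000247626, chr2:197705369-197708395, plus strand), the methionine enzyme, was low throughout, with 4.58, 6.14, 6.31 and 7.30 CPM in Ctrl and 4.13, 4.29, 3.54 and 4.79 CPM in siRNAG5 (log2 FC -0.53 ± 0.16 SE, adjusted p = 0.00990), and its groups overlapped. VARS2 (ENSG00000137411, chr6:30914205-30926459, plus strand), the valine enzyme, moved the other way, from 17.6, 18.6, 18.1 and 20.9 CPM in Ctrl to 30.9, 25.03, 26.6 and 25.1 CPM in siRNAG5 (log2 FC 0.53 ± 0.097 SE, adjusted p = 6.99e-05), with no overlap. CARS2 overlaps ING1 on the opposite strand, and VARS2 overlaps a long non-coding RNA (ENSG00000288473) on its own strand. FARS2 (-0.31), LARS2 (-0.35) and YARS2 (-0.35) were lower at an adjusted p under 0.05 without reaching the log2 FC limit. YARS2, for tyrosine, had 74.2, 85.5, 81.6 and 83.2 CPM in Ctrl and 60.8, 65.4, 62.4 and 63.7 CPM in siRNAG5. The other 9 mitochondrial members had an adjusted p above 0.05 and log2 FC from -0.37 (SARS2) to 0.12 (PARS2). All 4 siRNAG5 libraries lay below Ctrl for 5 of the 16, where 19.1% of all genes did, and above it for 1, where 15.1% did.

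Without Input Ctrl 3 and 4, the libraries with reads of liver genes, the same 4 cytosolic members were called higher, RARS1 was also called lower (-0.55, adjusted p = 2.36e-05) and MARS2 was no longer called (-0.37, adjusted p = 0.184). Some calls depended on 1 library through the log2 FC limit. MARS1 fell under it without Input Ctrl 1 (0.46) or Input siRNAG5 1 (0.44), VARS2 without the same libraries (0.49 and 0.46), and MARS2 without Input Ctrl 4 (-0.44) or Input siRNAG5 3 (-0.45). RARS1 passed it without Input Ctrl 1 (-0.50), Ctrl 3 (-0.50), Ctrl 4 (-0.51) or Input siRNAG5 3 (-0.53), and SARS2 without Input Ctrl 4 (-0.53). AARS1, CARS1, QARS1, CARS2 and EARS2 were called in each of the 8 fits that left out 1 library.

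The second comparison asked the same of polysomal RNA. In Polysome, CARS1 and MARS1 were called higher, CARS2 was called lower, and 0 of the other members were called. At an unadjusted p under 0.05 were 4 cytosolic and 3 mitochondrial members in all, 7 of 36, where 27.7% of all genes were. Over all 14420 genes tested, 3.95% were called higher and 4% lower. CARS1 had 17.7, 19.6, 28.1 and 28.2 CPM in the 4 Polysome Ctrl libraries and 34.9, 42.4, 45.4 and 29.6 CPM in the 4 Polysome siRNAG5 libraries (log2 FC 0.75 ± 0.19 SE, adjusted p = 0.0370). MARS1 had 50.8, 57.96, 82.7 and 90.2 CPM in Ctrl and 107, 129, 117 and 93.4 CPM in siRNAG5 (log2 FC 0.71 ± 0.19 SE, adjusted p = 0.0412). CARS2 had 65.5, 65.4, 49.1 and 52.2 CPM in Ctrl and 39.8, 28.9, 32.1 and 38.4 CPM in siRNAG5 (log2 FC -0.70 ± 0.16 SE, adjusted p = 0.0250). In each of these genes the groups did not overlap, and the cysteine pair changed in opposite directions in both fractions. No overlap in the higher direction was seen for 2 cytosolic and 0 mitochondrial members, where 8.29% of all genes showed it, and in the lower direction for 0 and 4, where 10% of all genes did.

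AARS1 and QARS1, called in Input, had 33.8, 33.6, 44.4 and 57.4 CPM and 72.03, 71.4, 61.01 and 79.9 CPM in Polysome Ctrl, and 37.9, 63.3, 55.8 and 39.8 CPM and 97.7, 85.3, 69.9 and 83.4 CPM in Polysome siRNAG5. Their log2 FC of 0.27 ± 0.21 and 0.28 ± 0.14 SE did not pass the test, and the groups overlapped. Of the mitochondrial enzymes called in Input, EARS2, MARS2 and VARS2 did not pass the test in Polysome. EARS2 had 21.8, 29.9, 29.1 and 32.7 CPM in Ctrl and 15.4, 21.8, 21.3 and 16.7 CPM in siRNAG5 (log2 FC -0.55 ± 0.17 SE, adjusted p = 0.0619), MARS2 had a log2 FC of -0.45 ± 0.26 and VARS2 one of 0.35 ± 0.19 SE. The lowest cytosolic values were those of FARSA (log2 FC -0.62 ± 0.21 SE, adjusted p = 0.0805) and HARS1 (log2 FC -0.57 ± 0.25 SE, adjusted p = 0.165). The class medians were 0.095 for the cytosolic and -0.13 for the mitochondrial members, beside 0.034 for all genes. Standard errors of the members ran larger than in Input, as the plot of log2 FC by gene shows.

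Of the 8 fits that left out 1 library, CARS2 was called in 5, MARS1 in 3 and CARS1 in 2. CARS1 was no longer called without Polysome Ctrl 1, 2 or 4 or siRNAG5 1, 2 or 3 (log2 FC 0.65 to 0.83, adjusted p 0.0529 to 0.135). MARS1 was lost without Polysome Ctrl 1 or 2 or siRNAG5 1, 2 or 3 (0.59 to 0.74, adjusted p 0.0730 to 0.145), and CARS2 without Polysome Ctrl 2 or siRNAG5 2 or 3 (-0.65 to -0.61, adjusted p 0.0665 to 0.0978). With a term for the 3 Polysome libraries that stood apart, CARS1 (0.86, adjusted p = 8.76e-05), MARS1 (0.82, adjusted p = 0.000209) and CARS2 (-0.78, adjusted p = 8.76e-05) were called, and NARS1, the asparagine enzyme, was called higher too (0.59, adjusted p = 0.00285). That fit was chosen after seeing the data, and it called more of all genes, 12.1% higher and 12% lower, beside 3 of the 20 cytosolic members higher and 1 of the 16 mitochondrial members lower. The summed level of liver genes was 93.4 to 181 CPM in every Polysome Ctrl library and 8.21 to 13.3 CPM in the siRNAG5 libraries, and its part in these results was not tested.

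**Figure D2:**
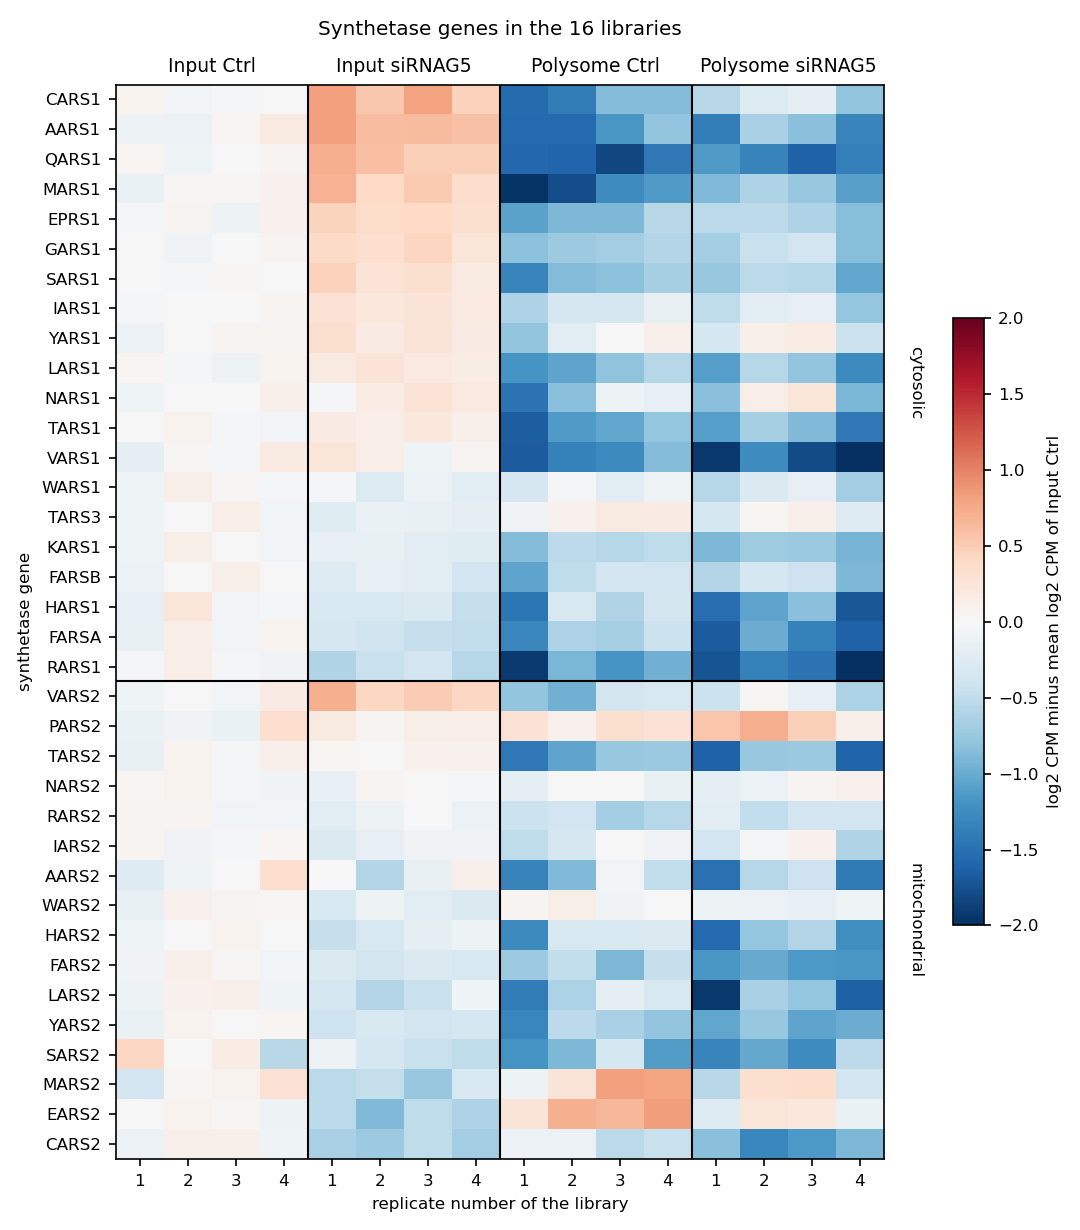
Each cell is the log2 CPM of a synthetase gene (rows, by class) in 1 library (columns, numbered by replicate within the 4 groups), minus the mean log2 CPM of that gene in the 4 Input Ctrl libraries, on a colour scale from -2 to 2. Red at the top of Input siRNAG5 marks CARS1, AARS1, QARS1 and MARS1, and blue across most rows of both Polysome groups marks levels below those of Input.

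The third comparison set Polysome against Input within each treatment and so described how far each mRNA was represented among polysomes. The values are relative, since each library is scaled to its own reads. TMM factors were 0.741 to 0.852 in Input and 0.975 to 1.59 in Polysome, and the median log2 FC of all genes after this scaling was -0.028 in Ctrl and -0.041 in siRNAG5. Reads that mapped to several places and were set aside made up 4.88 to 6.04% in the Input and 21.2 to 42.4% in the Polysome libraries, and their part in these values was not tested. Most cytosolic synthetase mRNAs were lower in Polysome than in Input. In Ctrl, 15 of 20 were called lower and 0 higher with a median of -0.77, and in siRNAG5 also 15 and 0 with a median of -0.90. Of all genes, 18.8% were called lower and 20.8% higher in Ctrl (13666 tested), and 21.2% lower and 23.9% higher in siRNAG5 (14795 tested). The mitochondrial class had 8 of 16 lower and 1 higher in Ctrl (median -0.49) and 8 lower and 2 higher in siRNAG5 (median -0.42). All 4 Polysome libraries lay below all 4 Input libraries for 17 cytosolic and 8 mitochondrial members in Ctrl, where 23.2% of all genes did, and for 16 and 9 in siRNAG5, where 27.5% did. They lay above them for 0 and 1 members in either treatment, where 21.2% of all genes in Ctrl and 22.9% in siRNAG5 did.

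QARS1 was furthest down. Its levels of 202 to 223 CPM in Input Ctrl compared with 72.03, 71.4, 61.01 and 79.9 CPM in Polysome Ctrl (log2 FC -1.58 ± 0.12 SE, adjusted p = 1.20e-07), and the log2 FC in siRNAG5 was -1.84 ± 0.13. MARS1 followed in Ctrl (Input 181 to 209.9 CPM, Polysome 50.8 to 90.2 CPM, log2 FC -1.48 ± 0.16 SE, adjusted p = 3.06e-06) with -1.24 ± 0.13 in siRNAG5. VARS1, for valine, had 60.98, 69.9, 67.8 and 77.6 CPM in Input Ctrl and 21.7, 26.9, 28.6 and 37.7 CPM in Polysome Ctrl (log2 FC -1.26 ± 0.15 SE, adjusted p = 6.72e-06). In siRNAG5 its levels were 80.99, 75.8, 64.6 and 71.6 CPM in Input and 17.99, 28.8, 19.8 and 17.1 CPM in Polysome (log2 FC -1.72 ± 0.17 SE, adjusted p = 9.34e-06). AARS1 had log2 FC of -1.23 ± 0.16 in Ctrl and -1.59 ± 0.17 in siRNAG5. In all of these genes every Polysome library was below every Input library of its treatment.

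All 7 members of the multi-synthetase complex lay below 0 in both treatments, with 6 called in Ctrl and 7 in siRNAG5 (medians -0.87 and -1.01). IARS1 was the one not called in Ctrl (log2 FC -0.34 ± 0.12 SE, adjusted p = 0.0306). Outside the complex the medians were -0.69 and -0.84 over 13 members. The 14 cytosolic members called lower in both treatments were AARS1, CARS1, EPRS1, FARSA, GARS1, HARS1, KARS1, LARS1, MARS1, QARS1, RARS1, SARS1, TARS1 and VARS1. FARSB was called in Ctrl alone (-0.55 ± 0.14, against -0.20 ± 0.13 in siRNAG5). The 4 called in neither were NARS1 (-0.53 ± 0.21 in Ctrl and -0.31 ± 0.24 in siRNAG5), TARS3 (0.10 ± 0.12 and 0.16 ± 0.13), WARS1 (-0.15 ± 0.11 and -0.17 ± 0.14) and YARS1 (-0.18 ± 0.16 and -0.25 ± 0.16). TARS3, a second threonine enzyme of the cytosol, had 22.7, 24.1, 26.5 and 23.1 CPM in Input Ctrl and 22.8, 25.6, 27.2 and 26.8 CPM in Polysome Ctrl. TARS1, the main threonine enzyme, had 229, 238, 221 and 219.8 CPM and 72.2, 104, 111 and 133 CPM, so that only one of the pair was lower in Polysome beyond its spread. YARS1, the tyrosine enzyme, had 359.9, 392, 406 and 408 CPM in Input Ctrl and 226, 338, 390.3 and 418 CPM in Polysome Ctrl, with overlapping groups.

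Among the mitochondrial enzymes TARS2, for threonine, was lowest relative to Input. It had 52.8, 61.8, 57.98 and 62.8 CPM in Input Ctrl and 21.7, 28.3, 34.8 and 34.9 CPM in Polysome Ctrl (log2 FC -0.96 ± 0.14 SE, adjusted p = 4.91e-05), and 60.1, 58.7, 62.6 and 62.6 CPM and 19.1, 34.9, 35.1 and 19.4 CPM in siRNAG5 (log2 FC -1.08 ± 0.21 SE, adjusted p = 9.66e-04). FARS2, for phenylalanine, was called lower in both (-0.62 ± 0.13 and -0.72 ± 0.11), with 22.5, 25.4, 23.9 and 22.7 CPM in Input Ctrl and 14.2, 16.8, 12.7 and 17.2 CPM in Polysome Ctrl. YARS2 (-0.78 ± 0.14 and -0.51 ± 0.11) and VARS2 (-0.58 ± 0.15 and -0.71 ± 0.16) were lower in both as well. YARS2 had 32.9, 56.4, 51.6 and 46.7 CPM in Polysome Ctrl, and VARS2 had 10.8, 9.61, 14.6 and 15.03 CPM. LARS2 had 5.75, 9.68, 13.1 and 12.04 CPM in Polysome Ctrl and 3.95, 9.58, 8.82 and 4.89 CPM in Polysome siRNAG5 (-0.56 ± 0.19 and -0.70 ± 0.26), and AARS2 was also called in both (-0.61 ± 0.22 and -0.67 ± 0.25). In siRNAG5, LARS2 and AARS2 were lowest in Polysome siRNAG5 1 and 4. RARS2, for arginine, was called lower in Ctrl alone (-0.50 ± 0.11, against -0.18 ± 0.10 in siRNAG5) and HARS2 in siRNAG5 alone (-0.64 ± 0.20, against -0.48 ± 0.18 in Ctrl).

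EARS2 went against its class. It had 21.8, 29.9, 29.1 and 32.7 CPM in Polysome Ctrl above 17.2 to 19.3 CPM in Input Ctrl (log2 FC 0.64 ± 0.14 SE, adjusted p = 0.00105), and 15.4, 21.8, 21.3 and 16.7 CPM above 10.00 to 12.9 CPM in siRNAG5 (log2 FC 0.75 ± 0.15 SE, adjusted p = 0.00158). Its exons overlap those of GGA2 on the same strand and of UBFD1 on the other. MARS2 had 5.58, 7.14, 10.5 and 10.4 CPM in Polysome Ctrl and was called higher in siRNAG5 alone (log2 FC 0.60 ± 0.23 SE, adjusted p = 0.0456, against log2 FC 0.48 ± 0.21 SE, adjusted p = 0.0694 in Ctrl), and its groups overlapped in both. IARS2, NARS2, PARS2, WARS2 and CARS2 were called in neither treatment, with log2 FC from -0.29 to 0.25 in Ctrl and from -0.32 to 0.45 in siRNAG5. SARS2, called lower in both treatments (-0.85 ± 0.26 and -0.57 ± 0.22), rests on 16 to 46 reads per library. Its exons overlap those of a gene on the same strand (ENSG00000269547), and the part of this overlap in its low counts was not tested.

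**Figure D3:**
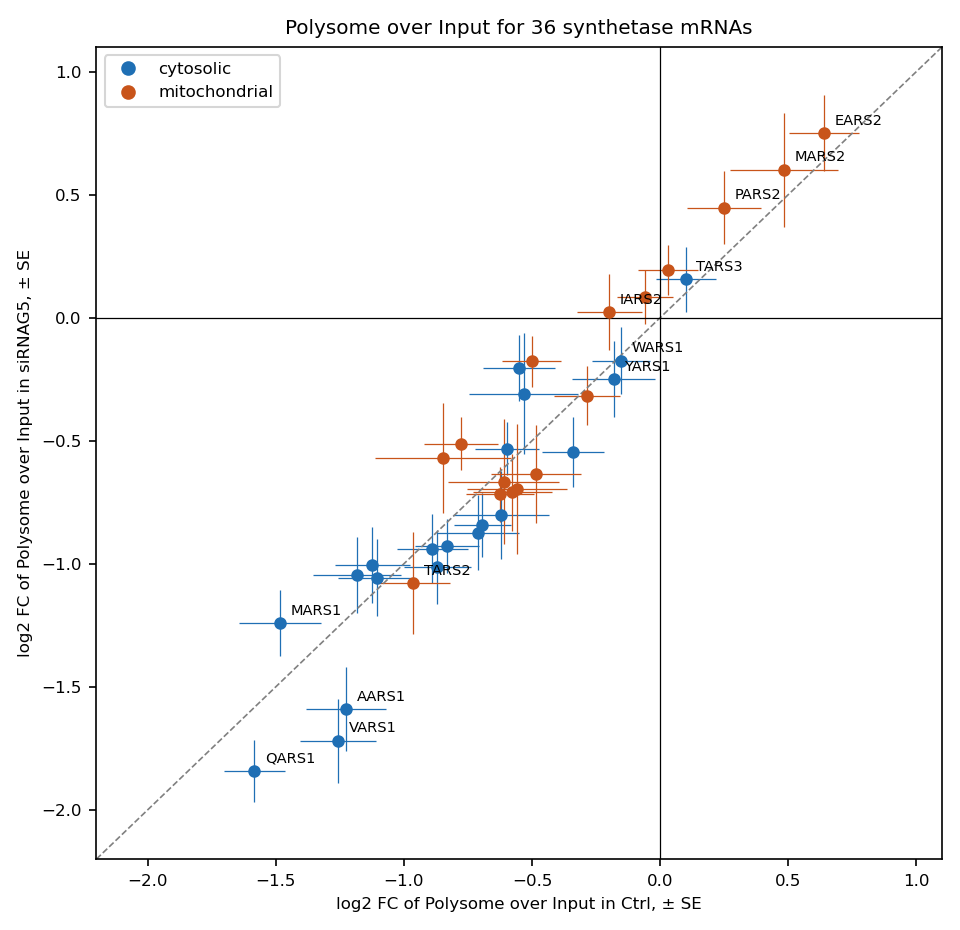
The horizontal axis is the log2 FC of Polysome over Input in Ctrl and the vertical axis the same in siRNAG5, each with its standard error, for the 36 synthetase genes in the colour of their class; the dashed line marks equal values. QARS1, MARS1, AARS1 and VARS1 sit lowest, TARS3 is the cytosolic gene above 0 on both axes, and EARS2 is the highest of all.

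The fits that left out 1 library kept the cytosolic pattern. Between 13 and 16 members were called lower in Ctrl and between 13 and 15 in siRNAG5. FARSB (-0.42) and HARS1 (-0.43) were lost without Polysome Ctrl 1, IARS1 without Polysome siRNAG5 4 (-0.41), and KARS1 without Polysome siRNAG5 1 (-0.50) or 4 (-0.46). NARS1 was gained in Ctrl without Polysome Ctrl 3 (-0.69) or 4 (-0.68). The mitochondrial calls were less firm. In Ctrl, FARS2, TARS2, YARS2 and EARS2 were called in each of the 8 fits. AARS2 was lost without Input Ctrl 3 or 4 or Polysome Ctrl 1 or 2 (-0.62 to -0.44), LARS2 without Input Ctrl 2 or 3 or Polysome Ctrl 1 or 2 (-0.55 to -0.38), RARS2 without Input Ctrl 1 or 2 or Polysome Ctrl 3 or 4 (-0.49 to -0.43), SARS2 without Input Ctrl 1 (-0.71) and VARS2 without Polysome Ctrl 2 (-0.48). In siRNAG5, FARS2, TARS2, VARS2 and EARS2 were called in each of the 8 fits. There, SARS2 was kept in 1 fit (without Polysome siRNAG5 4), LARS2 in 2 (without Polysome siRNAG5 2 or 3), MARS2 in 2 (without Polysome siRNAG5 1 or 4), AARS2 in 3 (without Input siRNAG5 2 or Polysome siRNAG5 2 or 3), YARS2 in 4 (without Input siRNAG5 1, 3 or 4 or Polysome siRNAG5 2) and HARS2 in all but those without Input siRNAG5 4 (-0.58) or Polysome siRNAG5 1 (-0.48). The count of mitochondrial members called lower in siRNAG5 was 5 without Input siRNAG5 1, 2 or 3 or Polysome siRNAG5 4, 4 without Input siRNAG5 4 and 3 without Polysome siRNAG5 1. Of all genes, 2791 of 15003 were called lower without Input siRNAG5 1 and 3282 of 15020 without Polysome siRNAG5 1. Without Polysome siRNAG5 1 and 4 together the medians in siRNAG5 were -0.64 for the cytosolic and -0.19 for the mitochondrial class, with 12 and 3 members called lower. That fit called 3604 of all 15361 genes lower and 4562 higher, so nothing is read from the 3 mitochondrial members. Per the study's methods each lysate gave both an Input and a Polysome sample, but the labels do not say that the replicate number marks the lysate. With the number as a block in edgeR, NARS1 (-0.62, adjusted p = 0.00760) and HARS2 (-0.52, adjusted p = 0.0120) were also called lower in Ctrl, whereas in siRNAG5 SARS2 (-0.58, adjusted p = 0.0754) and MARS2 (0.56, adjusted p = 0.0757) were no longer called.

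Across the 36 members, the log2 FC of Polysome over Input in Ctrl had a Pearson correlation of -0.42 (Spearman -0.37) with the log2 Input Ctrl level and of 0.13 with the log2 length of the canonical transcript. In siRNAG5 these were -0.42 (-0.38) and 0.079. The points are genes measured in the same libraries, and both axes of the first relation share the Input counts, so the values are descriptions.

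A single fit over the 16 libraries tested whether silencing acted differently in the fractions. edgeR called no gene (0% lower and 0% higher of 14958 tested, with 1089 at an unadjusted p under 0.05), and 0 of the 36 members. At an unadjusted p under 0.05 only VARS1 stood out among the members, where the Polysome log2 FC less the Input log2 FC was -0.54 ± 0.23 SE (adjusted p = 0.609). DESeq2 called 11 genes lower and 18 higher here, and the fit with a term for the 3 Polysome libraries 297 and 95, with 0 members in either. The medians were -0.14 for the cytosolic class, 0.039 for the mitochondrial class and -0.065 for all genes. The changes of CARS1 (0.040 ± 0.22), MARS1 (0.17 ± 0.22) and CARS2 (-0.098 ± 0.18) were close to 0 on this scale relative to their errors.

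Summed over the class, cytosolic synthetase mRNAs made up 3546 to 3774 CPM in Input Ctrl, 3857 to 4330 in Input siRNAG5, 1680 to 2613 in Polysome Ctrl and 1798 to 2544 in Polysome siRNAG5. The mitochondrial sums were 601 to 635, 524 to 563, 424 to 524 and 390.0 to 489 CPM in the same groups. In Input both sums separated the treatments without overlap, the cytosolic one upward and the mitochondrial one downward. The ratio of the cytosolic to the mitochondrial sum was 5.94 ± 0.0359 (SD, n = 4) in Input Ctrl, 7.53 ± 0.551 in Input siRNAG5, 4.51 ± 0.451 in Polysome Ctrl and 4.99 ± 0.285 in Polysome siRNAG5. The Polysome ranges, 3.96 to 5.07 and 4.61 to 5.30, overlapped.

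Per kilobase of all annotated exons, the median level in Input Ctrl was 19.6 CPM per kb for cytosolic and 3.90 CPM per kb for mitochondrial members, and in Polysome Ctrl 12.0 and 3.57. FARSA was the highest cytosolic member in Input Ctrl (136 CPM per kb) and LARS1 the lowest (3.64), while IARS2 (38.8) and SARS2 (1.02) were the extremes of the mitochondrial class. FARSA stood at 298, 364, 319.9 and 347 CPM and LARS1 at 77.2, 74.2, 69.98 and 79.2 CPM in Input Ctrl. IARS2, the isoleucine enzyme, had 166, 152, 158 and 165 CPM and SARS2, the serine enzyme, 4.08, 3.07, 3.38 and 2.08 CPM. The annotation used here lists long rare exons for several members, which lowers these values. Per kilobase of the canonical transcript the Input Ctrl medians were 58.4 and 9.36 CPM per kb, SARS1 was highest (222) and TARS3 lowest (6.92) among the cytosolic members, and IARS2 (45.4) and SARS2 (1.64) were again the mitochondrial extremes. SARS1 had 426, 413, 432 and 428 CPM in Input Ctrl and 586, 514, 529.9 and 482 CPM in Input siRNAG5.

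Enzymes for the same amino acid were then set side by side, as the log2 ratio of cytosolic to mitochondrial CPM in each library, over 17 pairs. In Input the mean ratio was higher in siRNAG5 than in Ctrl for 13 pairs. The 4 siRNAG5 libraries lay above the 4 Ctrl libraries for 8 pairs and below them for 2, RARS1/RARS2 and VARS1/VARS2. EPRS1 and FARS2 each enter more than 1 pair, and EPRS1/EARS2 and EPRS1/PARS2 are both among the 8. The share of other gene pairs without overlap was not computed, so nothing is read from these counts. In Polysome the mean was higher for 11 pairs, without overlap for 3 (CARS1/CARS2, EPRS1/EARS2 and MARS1/MARS2), and lower without overlap for VARS1/VARS2. These ratios are unscaled by length and serve only to compare treatments, and they restate the counts tested above, so no test is given.

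The log2 ratio of CARS1 to CARS2 was -0.64 to -0.29 in Input Ctrl and 0.68 to 0.99 in Input siRNAG5. In Polysome it was -1.89 to -0.81 in Ctrl and -0.37 to 0.55 in siRNAG5. For methionine, the mean log2 ratio of MARS1 to MARS2 was 5.05 ± 0.19 (SD, n = 4) in Input Ctrl and 6.07 ± 0.29 in Input siRNAG5, and 3.07 ± 0.097 and 4.27 ± 0.34 in Polysome. For glutamate, that of EPRS1 to EARS2 went from 2.72 ± 0.13 to 3.74 ± 0.15 in Input and from 1.25 ± 0.14 to 2.06 ± 0.25 in Polysome. EPRS1 had 118, 125, 112 and 128 CPM in Input Ctrl and 164, 156, 159.5 and 150.4 CPM in Input siRNAG5. Alanine differed in Input, with means of 2.92 ± 0.13 and 3.75 ± 0.29, and overlapped in Polysome. AARS2 itself had 10.9, 12.3, 13.2 and 16.6 CPM in Input Ctrl and 13.1, 8.72, 11.8 and 14.1 CPM in Input siRNAG5 (log2 FC -0.13 ± 0.14 SE, adjusted p = 0.476). In the valine pair the mitochondrial enzyme was the one called higher in Input, where the mean ratio of VARS1 to VARS2 went from 1.87 ± 0.054 to 1.44 ± 0.14. In Polysome the mean ratio went from 1.20 ± 0.25 to 0.42 ± 0.15. There the log2 FC was -0.41 ± 0.20 SE for VARS1 and 0.35 ± 0.19 SE for VARS2, and neither was called. The histidine genes HARS1 and HARS2 lie head to head and overlap on opposite strands, and their ratio overlapped between treatments in both fractions.

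**Figure D4:**
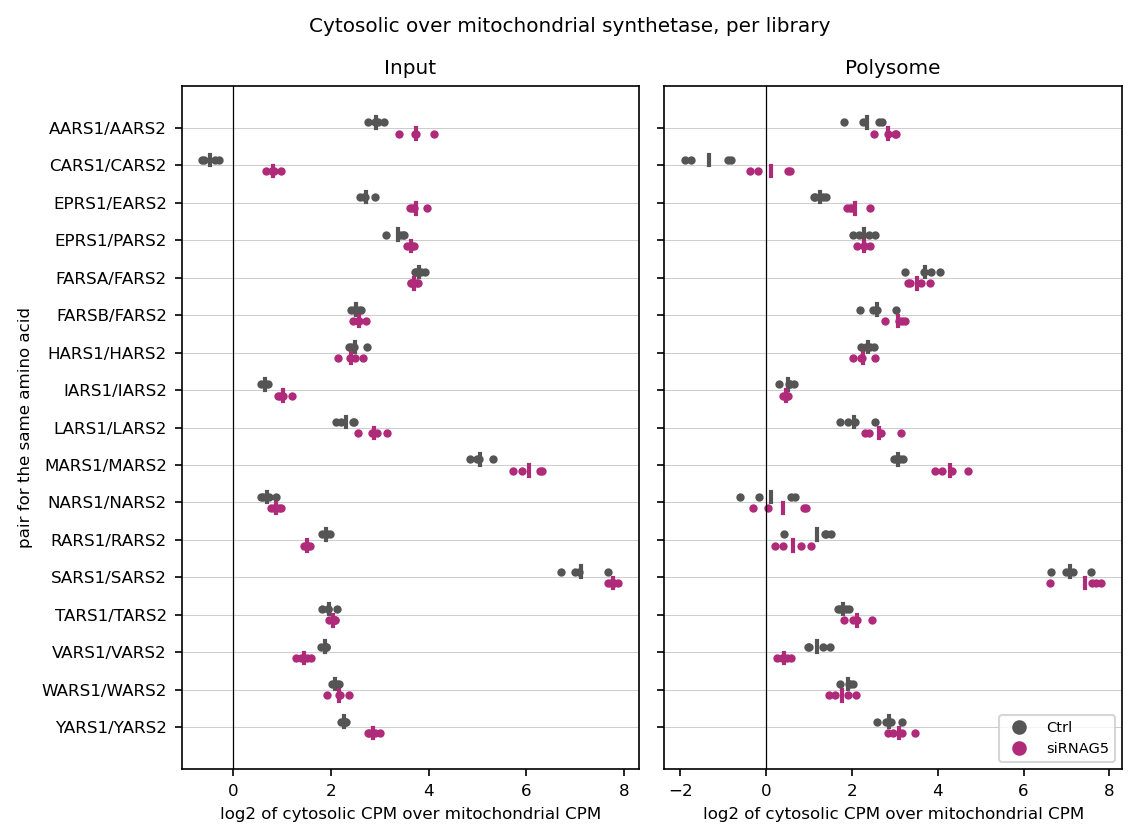
Each point is the log2 of cytosolic over mitochondrial CPM for a pair of synthetases of the same amino acid (rows) in 1 library, with the mean of the 4 libraries as a bar, for Ctrl (grey) and siRNAG5 (magenta) in Input (left) and Polysome (right). In Input the siRNAG5 points lie to the right of the Ctrl points without overlap in 8 of the 17 pairs and to the left in RARS1/RARS2 and VARS1/VARS2. EPRS1 and FARS2 each enter more than 1 pair.

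Genes that work beside the synthetases were counted in the same fits, where 6.02% of all genes in Input and 4% in Polysome were called lower. With 1 call in a list of 3 to 9 genes, nothing is read from the share. Of the 3 scaffold proteins of the multi-synthetase complex, AIMP2 was called lower in Input (log2 FC -0.88 ± 0.070 SE, adjusted p = 1.30e-10) and in Polysome (log2 FC -0.73 ± 0.14 SE, adjusted p = 0.0128). AIMP1 (-0.29 and -0.36) and EEF1E1 (-0.26 and -0.34) also lay below 0 and were not called. The scaffolds thus lay below 0 in Input while 5 of the 7 synthetases of the complex lay above it. Of the 4 partners that complete charging in mitochondria, the amidotransferase subunits GATB, GATC and QRSL1 and the formyltransferase MTFMT, all lay below 0 in both fractions, with 0 called in Input and GATC called lower in Polysome (log2 FC -0.54 ± 0.14 SE, adjusted p = 0.0407, against -0.50 ± 0.085 SE in Input). Of 9 mitochondrial translation factors, 9 lay below 0 in Input with a median of -0.28, and 1 was called, MRRF, the ribosome recycling factor (log2 FC -0.70 ± 0.071 SE, adjusted p = 6.13e-09 in Input and log2 FC -1.22 ± 0.17 SE, adjusted p = 0.00283 in Polysome). Of the 5 genes for editing and quality control of charged tRNA, 4 were tested and PTRH2, a peptidyl-tRNA hydrolase, was called lower in both fractions (-0.88 ± 0.080 and -0.74 ± 0.14 SE). The fifth, AARSD1, had 0 to 4 reads per library, and the part of reads set aside as ambiguous between genes was not tested.

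Of 23 targets of the integrated stress response 22 were tested, of which 13 were called higher and 1 lower in Input (median 0.69), and 9 higher and 1 lower in Polysome (median 0.61), beside the 10.5% and 3.95% of all genes called higher. The largest were NUPR1 (log2 FC 2.25 ± 0.17 SE, adjusted p = 4.22e-11), CHAC1 (log2 FC 1.85 ± 0.13 SE, adjusted p = 1.29e-11), which degrades glutathione, and VLDLR (log2 FC 1.60 ± 0.20 SE, adjusted p = 2.11e-07) in Input, and NUPR1 (2.12), CHAC1 (2.01) and DDIT3 (1.16) in Polysome. The gene that fell was ATF5 (log2 FC -1.03 ± 0.16 SE, adjusted p = 9.45e-06 in Input and -1.18 ± 0.22 SE in Polysome), a transcription factor of the same family as ATF4. ATF4 itself had a log2 FC of 0.28 ± 0.061 in Input and 0.19 ± 0.23 in Polysome and was not called. ASNS, the asparagine synthetase, had 0 to 19 reads per library and was not tested. Reads ambiguous between genes were set aside, and their part in this low count was not tested. The TGATGCAA letters were found in the promoter windows of 1 of the 19 list genes with a window, CHAC1, beside 1.08% of all genes. The wider TGATGNAA was found for 4 of the 19 (ASNS, ATF3, CHAC1 and SLC3A2), beside 4.46% of all genes. No test was made of these shares either.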

How the data were processed

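RNA of cytoplasmic lysates (Input) and polysomes (Polysome) was measured in 4 Ctrl and 4 siRNAG5 samples of HEK293 cells per fraction. The authors prepared stranded poly(A) libraries, aligned reads to GRCh38 with STAR (version 2.5.3a per the labels) and deposited whole-number counts per gene from QoRTs, without normalization. Multi-mapped (4.88 to 6.04% in Input and 21.2 to 42.4% in Polysome), unassigned (0.667 to 1.33%) and ambiguous (4.14 to 7.41%) reads are listed apart in the deposited files and entered neither library sizes nor tests.

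Of 58302 identifiers, 57532 were named with the gene table supplied for GRCh38, and coordinates and exon lengths are those of GENCODE v44. Groups and replicate numbers came from the sample labels, which do not say that a number marks a lysate. All genes were fitted with edgeR 4.0.16 under R 4.3.3 (TMM scaling, the filterByExpr filter, quasi-likelihood test, Benjamini-Hochberg adjustment over all genes), with the 8 libraries of each comparison in a fit of its own and all 16 in the test of the difference between fractions. The quasi-likelihood test gives no standard error (SE). Each SE was computed as the absolute log2 FC over the square root of that test's F statistic. The members, the gene lists and these tests were chosen with earlier results of these data known. All 36 members passed the filter on low counts in every comparison. Values per library are printed for called members (at most 4 per direction, comparison and class), for the extremes per length and for pairs in which 1 enzyme was called, and list genes are the called ones with the largest log2 FC, at most 3 per direction. Members printed beyond this rule were chosen after their values were seen. Figures were drawn with Python 3.11.15, pandas 2.3.3, numpy 2.4.6 and matplotlib 3.10.9.

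Alternatives were DESeq2 1.42.0 without shrinkage, size factors by RLE, all genes with no count filter, all 16 libraries in one fit, the replicate number as a block, canonical transcript length and each library left out in turn. On simulated counts edgeR recovered 100 of 100 genes changed by 1 on the log2 scale in the Input design (14570 genes). It recovered 73 of 100 in Polysome (14186 genes) and 63 of 100 for the difference between fractions (14654 genes). False calls were 6, 9 and 6 in the same order. The simulated counts had the same spread for all genes of a fraction, and genes of low level were not changed. They held no libraries that stood apart and no liver reads that differed between libraries. The recovery and the false calls describe that setting and not these libraries. Members called by treatment had a log2 FC of 0.51 to 0.75 in either direction. Recovery of changes below 1 was not tested.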

Additional observations from a re-analysis of the deposited data

Results flagged for a closer look

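In 4 of 144 group values tested, 1 of the 4 libraries of a group lay far from the other 3 (Dixon's test at the 95% level). Chance flags about 1 in 20 groups, so that 4 flags are not more than chance gives. HARS2 in Polysome Ctrl was lowest in library 1, at 8.66 CPM beside 16.7 to 17.1 CPM in the others. PARS2 in Polysome Ctrl was lowest in library 2, at 12.3 CPM beside 14.2 to 14.5 CPM. PARS2 in Input Ctrl was highest in library 4, at 14.6 CPM beside 10.6 to 11.1 CPM. FARS2 in Polysome siRNAG5 was highest in library 2, at 11.7 CPM beside 10.5 to 10.7 CPM. None of these 4 values belongs to a member and comparison called between Ctrl and siRNAG5.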

How the results depend on the processing

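Every called member kept its direction in every alternative that was run. The counts moved as follows, and the cause was not tested for any of them. Cytosolic members called lower in Input were 1 without Input Ctrl 3 and 4. In Polysome they were 1 with DESeq2 and 2 in a single fit of the 16 libraries, and mitochondrial members called lower were 2 with DESeq2, with RLE size factors and with all 16 libraries. Polysome over Input in Ctrl gave 2 mitochondrial members higher without the filter on low counts and 5 lower without Input Ctrl 3 and 4. Of all genes, 3257 of 26624 were higher in the former fit and 2096 of 14253 lower in the latter. In siRNAG5, Polysome over Input gave 1 mitochondrial member higher with all 16 libraries and 1 with the replicate block. Without Polysome siRNAG5 1 and 4 the medians were -0.64 and -0.19 with 3 mitochondrial members lower, where 3604 of all 15361 genes were lower. There AARS2, HARS2, LARS2, VARS2 and YARS2 were lost on the mitochondrial side, HARS1, IARS1 and KARS1 on the cytosolic side, and PARS2 (0.66) was gained as higher.

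Single calls were also lost in edgeR or DESeq2 where the counts moved little. With all 16 libraries in one fit, MARS1 (0.498) and MARS2 (-0.54, adjusted p = 0.135) lost their Input calls, and AARS2 (adjusted p = 0.0594) and LARS2 (adjusted p = 0.0700) their calls as lower in Polysome than in Input of Ctrl. RARS2 was lost there with DESeq2 (-0.49), with RLE size factors (-0.49) and without the filter on low counts (-0.47), and FARSB, AARS2, LARS2 and VARS2 without Input Ctrl 3 and 4 (adjusted p 0.0641 to 0.242). In siRNAG5, AARS2 (adjusted p = 0.0519) and LARS2 (adjusted p = 0.0502) were lost with RLE size factors, SARS2 with DESeq2 (adjusted p = 0.0555), and SARS2 (adjusted p = 0.115), KARS1 (-0.498) and YARS2 (-0.48) without the filter.

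Per kilobase of canonical transcript the cytosolic medians were 58.4, 54.3, 33.4 and 31.1 CPM per kb in Input Ctrl, Input siRNAG5, Polysome Ctrl and Polysome siRNAG5, and the mitochondrial ones 9.36, 8.14, 7.54 and 6.68. Over the fits that left out 1 library, Input gave 0 to 1 cytosolic members lower and 0 to 1 mitochondrial members higher. Polysome gave 0 to 1 cytosolic members lower, 0 to 2 higher and 0 to 2 mitochondrial members lower. Polysome over Input in Ctrl gave 1 to 2 mitochondrial members higher with a mitochondrial median of -0.51 to -0.37, and in siRNAG5 3 to 7 lower and 1 to 3 higher.

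Correlations of the deviations of same-numbered samples ranged from -0.24 to 0.25 between Input and Polysome of a treatment. They ranged from -0.060 to 0.075 between the treatments in Input and from -0.65 to 0.58 in Polysome. Polysome Ctrl 2, Ctrl 4 and siRNAG5 1 correlated best with the Input sample of the same number, and the other Polysome samples with another number. The data thus do not settle a pairing by number. As a block the number changed no member's call by treatment, and its changes between the fractions (NARS1 and HARS2 gained in Ctrl, SARS2 and MARS2 lost in siRNAG5) stand beside those results. Over all genes, Polysome calls were 577 lower and 569 higher with edgeR and 1101 and 840 with DESeq2, 941 and 825 without the filter, 1520 and 1077 with all 16 libraries, 1734 and 1748 with the term for the 3 libraries, and 113 and 76 without Polysome Ctrl 2. SARS2, with 16 to 46 reads per library, has the fewest reads of the members.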
